A study of Mus musculus with 9 samples.

Results

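The genes described here encode the proteasome, its activators and its assembly factors. They were taken by symbol, as all genes beginning with Psma, Psmb, Psmc, Psmd, Psme, Psmf or Psmg followed by a digit, and numbered 50 of the 19058 genes in the table. Expression was measured by RNA sequencing of primary Leydig cells from testes of wild-type (WT) mice. There were 3 libraries of control cells, 3 of cells exposed to TPhP (triphenyl phosphate) and 3 of cells exposed to DPhP (diphenyl phosphate). TPhP is a flame retardant and plasticiser in which a phosphate carries 3 phenyl esters, and DPhP is its metabolite with fewer phenyl esters. The sources used here give no dose, exposure time, control vehicle, or age and number of animals. Whether replicate libraries stem from separate cultures is not stated either, so the p-values may measure technical spread alone.

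The 26S proteasome degrades proteins tagged with ubiquitin. Its barrel, the 20S core, stacks rings of alpha subunits, which gate the entry, around rings of beta subunits, some of which cut the substrate. The 19S particle caps the core with a base of ATPases, which unfold substrates, and a lid, which removes ubiquitin. In immune cells and under interferon, Psmb8, Psmb9 and Psmb10 take the places of the constitutive catalytic subunits and form the immunoproteasome, whose peptides are loaded on class I MHC molecules. In Leydig cells, as in other cells, the proteasome turns over regulatory and misfolded proteins.

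By these roles the members fell into 8 alpha subunits, 7 constitutive beta subunits, 4 immunoproteasome or tissue-specific beta subunits, 9 subunits of the base, 8 of the lid, 6 activators and inhibitors, and 7 assembly factors. The remaining member, Psmc3ip, was caught by the symbol rule but encodes a meiotic recombination factor and not a proteasome subunit. A total of 48 members passed the filter, which asked for 1 FPKM or more in 3 or more libraries. FPKM counts a gene's fragments relative to its length and to the fragments of the library. The other members were Psma8, an alpha subunit of male germ cells, and Psmb11, a beta subunit of thymic epithelium. Psma8 had 0.82, 0.72 and 0.56 FPKM in control, 0.76, 1.0 and 0.55 in TPhP and 1.18, 0.68 and 0.64 in DPhP libraries. Psmb11 lay between 0.15 and 0.31 FPKM in all libraries. Both were near the floor of the measurement in every group, and neither was tested.

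The labelled cell type was checked against lists of marker genes. Summed over 8 Leydig cell markers, control libraries had 1670 to 1785 FPKM, TPhP libraries 1759 to 1828 and DPhP libraries 328 to 343. Insl3, Cyp11a1 and Hsd3b1 carried most of this fall, with Insl3 at 525 to 556 FPKM in control and 10.4 to 12.4 in DPhP. Nr5a1 went from 47.9 to 49.4 FPKM in control to 32.4 to 34.8 in DPhP. Star overlapped, at 29.6 to 33.4 FPKM in control and 29.9 to 32.4 in DPhP. Of the 6 tested markers 5 were called lower in DPhP against control, where 37.9% of all tested genes were called lower. Among these 6, Lhcgr reached 1 FPKM only in control and TPhP libraries and was tested through them. The defining Leydig enzymes Cyp17a1 and Hsd17b3 were under 1 FPKM on average in control. The 6 fibroblast markers summed to 3890 to 3920 FPKM (control), 3567 to 3685 (TPhP) and 6880 to 7053 FPKM (DPhP). The 14 macrophage markers summed to 1534 to 1556, 1474 to 1483 and 1845 to 1964 FPKM, and the 5 peritubular myoid markers to 592 to 660, 583 to 618 and 1528 to 1585 FPKM, in the same order. Of the macrophage markers 8 were called higher and 4 lower in DPhP against control by limma, beside 33.1% and 37.9% of all tested genes. The marker Fcgr1 reached 1 FPKM only in DPhP libraries and was tested through them. Lyz2 alone spanned 1046 to 1078 FPKM (control), 1002 to 1022 (TPhP) and 1422 to 1546 FPKM (DPhP), and the other 13 summed to 477 to 488, 461 to 472 and 418 to 423 FPKM. Endothelial, Sertoli and germ cell markers summed to at most 60.0 FPKM in any library, and the 8 lymphocyte markers to at most 2.83 FPKM, with 7 of them under 1 FPKM in every group. Fewer Leydig cells and less of these RNAs per cell cannot be told apart in bulk RNA. These marker levels moved with every DPhP result below, and their part in those results was not tested.

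In control cells the core and the cap were expressed within a narrow range (see the plot of FPKM by library). The means of the 14 general core subunits ran from 70.1 ± 1.4 FPKM (SD, n = 3) for Psma1 to 167 ± 7.73 for Psmb4, a ratio of 2.38. With the base and lid included, the lowest mean was that of the lid deubiquitinase Psmd14, 51.0 ± 1.43 FPKM, and the ratio of highest to lowest was 3.27. The most abundant transcripts after Psmb4 were the lid subunit Psmd8 at 149 ± 6.56 FPKM and the alpha subunit Psma3 at 143 ± 4.76. These last means lay within their spread of each other. Assembly factors were lower, from 9.50 ± 1.49 FPKM for Psmg4 to 30.8 ± 1.15 for Psmd5. The immunoproteasome subunits stood at 7.39 ± 0.520 FPKM for Psmb9, 14.4 ± 0.422 for Psmb8 and 19.3 ± 1.86 for Psmb10, below every general core subunit. Psmb11, Psma8, the activator gene copy Psme2b and Psmc3ip were the lowest of the 50. All 50 members held 0.755% to 0.770% of the summed FPKM of control libraries, 0.756% to 0.762% of TPhP libraries and 0.755% to 0.759% of DPhP libraries, so their summed share overlapped between groups.

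**Figure D1:**
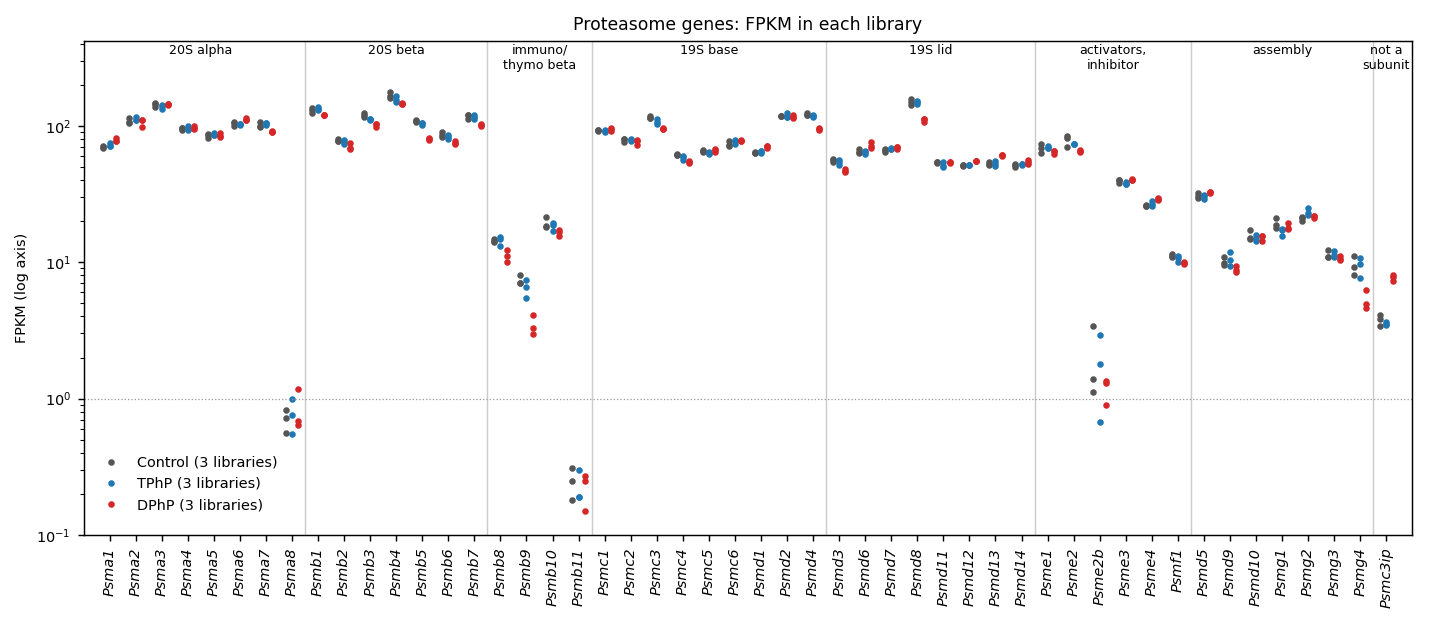
FPKM of each of the 50 genes (log axis) in 3 control, 3 TPhP and 3 DPhP libraries, each point a library, grouped by the role of the gene. Core and cap subunits apart from Psma8 lie between 45.8 and 175 FPKM, immunoproteasome subunits and assembly factors lower, and the DPhP points of Psmb5, Psmb9, Psmd4, Psmd8 and Psmg4 lie under the others. The dotted line marks 1 FPKM.

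Upstream sequences are shown for 5 members with large falls in DPhP cells, since genes that fall together raise the question of shared upstream letters. They are not the 5 largest falls, as Psmd4 fell slightly more than Psmb8 and is not shown. Psmb9 (chr17:34182030-34187330, minus strand) and Tap1 (chr17:34187556-34197225, plus strand), which encodes a chain of the peptide transporter, lie head to head in the MHC class II region with 225 bases between them. Psmb8 (chr17:34198195-34201454, plus strand) starts 969 bases beyond Tap1 and ends 3024 bases before Tap2. The sequences below are from RefSeq, build GRCm38.p6, read 5′ to 3′ on the strand of the gene and ending at the base before its annotated start. Capitals mark a match to a searched motif, given in the following paragraph.
Psmb9 (gap to Tap1, chr17:34187331-34187555, minus strand): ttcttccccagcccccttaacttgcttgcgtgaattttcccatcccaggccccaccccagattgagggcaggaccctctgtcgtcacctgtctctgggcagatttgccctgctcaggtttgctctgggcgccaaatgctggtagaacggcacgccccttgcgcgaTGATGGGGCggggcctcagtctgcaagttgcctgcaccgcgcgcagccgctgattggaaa
Psmb8 (upstream bases, chr17:34197945-34198194, plus strand): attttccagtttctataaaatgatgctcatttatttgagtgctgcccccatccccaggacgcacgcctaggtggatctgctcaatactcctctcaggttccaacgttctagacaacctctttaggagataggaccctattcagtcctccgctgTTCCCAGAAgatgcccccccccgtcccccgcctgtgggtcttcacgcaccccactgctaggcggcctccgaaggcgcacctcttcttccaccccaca
Psmb5 (upstream bases, chr14:54617996-54618245, minus strand): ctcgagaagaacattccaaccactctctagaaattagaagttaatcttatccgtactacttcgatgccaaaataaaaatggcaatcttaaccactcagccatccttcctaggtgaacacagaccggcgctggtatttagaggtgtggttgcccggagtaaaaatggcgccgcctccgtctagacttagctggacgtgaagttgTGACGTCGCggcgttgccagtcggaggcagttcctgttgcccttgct
Psmd8 (upstream bases, chr7:29180674-29180923, minus strand): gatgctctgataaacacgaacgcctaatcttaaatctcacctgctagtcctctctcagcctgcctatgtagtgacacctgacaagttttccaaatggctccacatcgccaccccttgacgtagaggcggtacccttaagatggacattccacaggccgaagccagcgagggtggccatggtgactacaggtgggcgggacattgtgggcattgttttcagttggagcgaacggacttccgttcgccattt
Psmg4 (upstream bases, chr13:34162714-34162963, plus strand): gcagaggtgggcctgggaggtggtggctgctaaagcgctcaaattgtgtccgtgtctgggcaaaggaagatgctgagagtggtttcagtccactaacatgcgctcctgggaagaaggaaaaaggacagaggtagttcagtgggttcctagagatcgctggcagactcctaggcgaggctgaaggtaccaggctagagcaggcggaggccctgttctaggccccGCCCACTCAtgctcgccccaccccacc

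Both strands of the 250 bases before the start were searched for motifs of regulators of these genes, in 45 windows that RefSeq gave for 42 of the 50 members. The loose core of the antioxidant response element, TGANNNNGC, which factors such as Nfe2l1 and Nfe2l2 bind, was found in 18 of the 45 windows (40.0%) and in 35.2% of all 32851 promoters. It is the motif in capitals in Psmb9, Psmb5 and, on the other strand, Psmg4. The stricter form TGACTCAGC, every match of which is also a match of the loose core, was in none of the 45 windows and in 0.390% of all promoters. The core of the interferon-stimulated response element, GAAANNGAA, was in 3 windows, of Psmb3, Psmd4 and Psmd9 (6.67%), and in 7.13% of all promoters. The palindromic GAS element TTCNNNGAA, which STAT factors bind, was in 2 windows (4.44%), of Psmb8, where it is in capitals, and of Psmg1, and in 7.02% of all promoters. The Psmd8 window held none of these letters. The shares in members and in all promoters lay close together, and a match is a description of letters, not a binding site.

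The first comparison asked whether TPhP changed the proteasome genes. None of the 48 tested members was called in TPhP against control by limma with Benjamini-Hochberg adjustment at an adjusted p under 0.05. Among all 12369 tested genes 6.22% were called, 2.58% higher and 3.64% lower. At an unadjusted p under 0.05 there were 6 members (12.5%), against 2705 of all tested genes (21.9%). The log2 fold changes, taken on FPKM + 1, ran from -0.17 for Psmg1 to 0.16 for Psmg2 with a median of -0.02, against a median of 0.01 over all tested genes. For the 31 general subunits of core, base and lid, the 95% intervals of the difference reached from -0.18 to 0.15 on the log2 scale. Each interval is for 1 gene, so these ends are not a joint bound over the 31. They also hold only for this scaling and for the spread among these libraries.

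The members nearest the threshold were an assembly factor, a beta subunit and an ATPase. Psmg2, a chaperone of alpha ring assembly, had 21.5, 20.9 and 20.1 FPKM in control, 25, 23.0 and 22.2 in TPhP and 21.7, 21.7 and 21.1 in DPhP libraries. Its 3 TPhP values were above all control values, and its adjusted p in limma was 0.0555 for a log2 difference of 0.16 (SE 0.044). Psmb3, a beta subunit without catalytic activity, had 123, 121 and 116 FPKM in control and 112, 113 and 110 in TPhP libraries. These groups did not overlap either, and the log2 difference was -0.11 (SE 0.030) with an adjusted p of 0.0569 in limma. Psmc3, an ATPase of the base, had 114, 115 and 118 FPKM in control and 106, 112 and 104 in TPhP libraries, again without overlap (-0.10, SE 0.030, limma adjusted p 0.0661). Psmg2 was called when libraries were rescaled to a common sum (adjusted p 0.0358 in limma) and without TPhP replicate 3 (0.0356). It was also called with replicate number as a block (0.0318) and with a filter on a mean of at least 5 FPKM (0.0438). Psmb3 was called with median-of-ratios size factors (limma adjusted p 0.0467) and with that filter on the mean (0.0476). It was also called without control replicate 3 (0.0428) and without DPhP replicate 1 (0.0488), and Psmc3 without TPhP replicate 2 (0.0261). Psme2, an activator subunit, was called without control replicate 3 (0.0139).

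**Figure D2:**
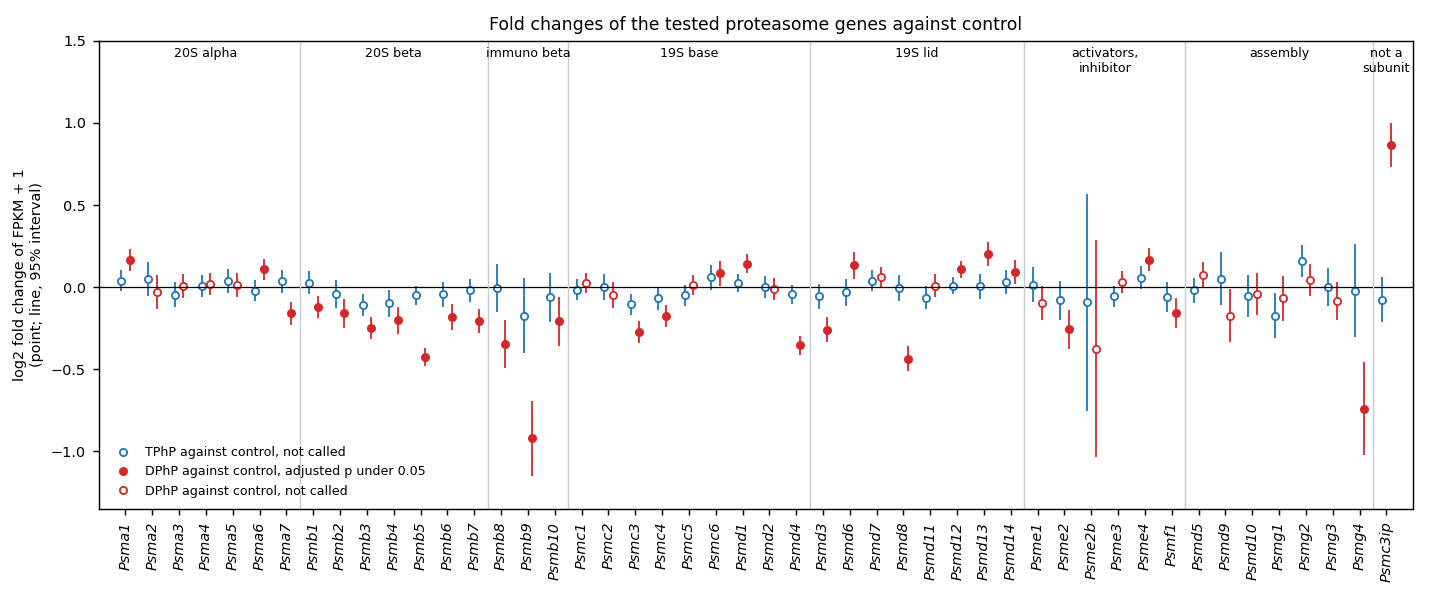
Log2 fold change of FPKM + 1 against control for the 48 tested genes, with 95% intervals from limma, in TPhP and DPhP. Filled points passed an adjusted p of 0.05. No TPhP point is filled, while 10 DPhP points are filled above 0 and 19 below it, among them all 7 constitutive beta subunits.

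The second comparison asked the same of DPhP. In DPhP against control 29 of the 48 members were called, 10 higher and 19 lower, by limma with Benjamini-Hochberg adjustment. This share, 60.4%, was below that of all tested genes, of which 71.0% were called, 33.1% higher and 37.9% lower. The members' median log2 fold change was -0.06, and that of all tested genes -0.02. By role, the called constitutive beta and immunoproteasome subunits were all lower, while calls in the alpha ring, the base, the lid and the activators went both ways. The call was the same in all 20 alternative treatments of the data for 7 members that rose, Psma1, Psma6, Psmd1, Psmd6, Psmd12, Psmd13 and Psmc3ip. It was also the same in all 20 for 9 that fell, Psmb3, Psmb5, Psmb7, Psmb8, Psmb9, Psmd3, Psmd4, Psmd8 and Psmg4.

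GC content and length of transcripts moved with these calls. Over all tested genes the median GC content of the longest GENCODE transcript was 47.0% for genes called higher in DPhP and 52.5% for genes called lower, and the median lengths were 3997 and 2893 bases. Among the members the GC medians were 46.7% for the 10 called higher and 52.6% for the 19 called lower, with lengths of 1748 and 1819 bases. When the trends of each library with GC content and length were removed, an alternative chosen after seeing the data, 18 members were called higher and 14 lower. Rescaling to a common sum or quantile normalization each gave 20 higher and 14 lower, and median-of-ratios size factors 12 and 19. Over all tested genes the same settings called 33.5% higher and 33.0% lower with the trends removed, 42.2% and 30.1% with a common sum, 37.6% and 33.3% with quantile normalization, and 36.4% and 34.6% with median-of-ratios size factors. The split between higher and lower members thus changed with the scaling, and ratios between members within a library are given below as well.

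In the alpha ring 2 of 7 tested subunits were called higher, 1 lower and 4 neither. With a common sum or quantile normalization 5 were called higher and none lower, with median-of-ratios size factors 2 and 1, and with the GC and length trends removed 5 and 2. Psma1 (chr7:114264550-114276116) had 68.7, 71.5 and 70.1 FPKM in control, 74.3, 70.6 and 71.5 in TPhP and 77.8, 77.6 and 80.8 in DPhP libraries. All DPhP values were above all others, and the log2 rise was 0.16 (SE 0.030, limma adjusted p 0.000379). Psma6 had 106, 106 and 99.3 FPKM in control, 100.5, 103 and 103 in TPhP and 110.3, 114 and 111 in DPhP libraries. It also lay highest in every DPhP library, with a rise of 0.11 (SE 0.030, limma adjusted p 0.00708). Psma7, the third called alpha subunit, had 106, 99.2 and 98.7 FPKM in control, 100.4, 106 and 106 in TPhP and 91.2, 89.8 and 90.5 in DPhP libraries. It fell by 0.16 (limma adjusted p 0.000919), but it was called higher, by 0.11 (adjusted p 0.0103), once the GC and length trends were removed. Psma2, Psma3, Psma4 and Psma5 had log2 differences between -0.03 and 0.02 and were not called. Psma3, Psma4 and Psma5 were called higher with a common sum and with quantile normalization, and after removal of the trends Psma4 (0.09) and Psma5 (0.15) were called higher and Psma3 (-0.09) and Psma2 (-0.14) lower. Of these, Psma5 and Psma3 share sequence with pseudogenes, with 64.8% and 85.7% of their 75-base stretches found in no other gene. The removal used the longest transcript of each gene, with 2911 bases and 39.4% GC for Psma2 and 2846 bases and 40.8% for Psma3. The alpha ring medians were 1239 bases and 45.0%, and whether the longest transcripts are those expressed was not tested.

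All 7 constitutive beta subunits were called lower in DPhP cells, with log2 falls from -0.12 for Psmb1 to -0.43 for Psmb5 and a median of -0.20. Psmb5 (chr14:54614120-54617995), the chymotrypsin-like subunit, had 106, 109 and 108 FPKM in control, 105, 106 and 102 in TPhP and 80.3, 80.7 and 79.2 in DPhP libraries. Its DPhP values were clearly apart from the others, and it fell by 0.43 (SE 0.025, limma adjusted p 2.98e-08). Only 63.2% of its 75-base stretches are found in no other gene, because of a pseudogene copy, Gm3375. Psmb7 (chr2:38588046-38643952), the trypsin-like subunit, had 120, 120 and 112 FPKM in control, 116, 119 and 113 in TPhP and 101, 103 and 99.9 in DPhP libraries. It was lowest in all DPhP libraries and fell by 0.21 (SE 0.033, limma adjusted p 0.000133). Psmb6 (chr11:70525324-70527858), the caspase-like subunit, had 89.7, 85.0 and 82.8 FPKM in control, 80.6, 85.7 and 83.3 in TPhP and 74.0, 75.2 and 77.5 in DPhP libraries. It fell by 0.18 (SE 0.035, limma adjusted p 0.000671), again with no overlap of the DPhP group with either other group.

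The non-catalytic beta subunits moved the same way. Psmb3 had 97.7, 102 and 103 FPKM in DPhP libraries, below the control values given above, and fell by 0.25 (SE 0.030, limma adjusted p 1.49e-05). Psmb1 had 130, 136 and 125 FPKM in control, 136, 130 and 132 in TPhP and 119, 120 and 120 in DPhP libraries, a fall of 0.12 (SE 0.031, limma adjusted p 0.00468). Psmb4 and Psmb2 fell by 0.20 and 0.16. Sequence composition differed between the rings, with a median GC content of 51.0% in the beta and 45.0% in the alpha ring. With the trends in GC content and length removed, Psmb7 (-0.30), Psmb3 (-0.14) and Psmb5 (-0.07) were still called lower, Psmb2 was called higher (0.09), and Psmb1, Psmb4 and Psmb6 were not called. The longest transcript used for Psmb7 has 2849 bases and 40.8% GC, beside beta ring medians of 1183 bases and 51.0%. Its value after this removal depends on that transcript. Quantile normalization also left 3 of the 7 called lower, a common sum 5, and median-of-ratios size factors 7.

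The relation of the rings was also read within each library, where a common scaling factor cancels. This ratio was chosen after its values were seen and has no test. The summed FPKM of the 7 beta subunits divided by that of the 7 alpha subunits was 1.15, 1.16 and 1.12 in control, 1.10, 1.08 and 1.11 in TPhP and 0.954, 0.978 and 0.986 in DPhP libraries. The 3 groups did not overlap, with the DPhP libraries furthest below control and the TPhP libraries between them. For control, TPhP and DPhP the alpha sums were 699 to 715, 703 to 725 and 703 to 719 FPKM, and the beta sums 788 to 827, 776 to 783 and 686 to 700 FPKM. With the GC and length trends removed the ratio was 1.11 ± 0.016 in control, 1.08 ± 0.014 in TPhP and 1.01 ± 0.015 in DPhP libraries (SD, n = 3 each). The DPhP libraries were then at 1.0, 1.01 and 1.03, still below the lowest TPhP library at 1.07.

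**Figure D3:**
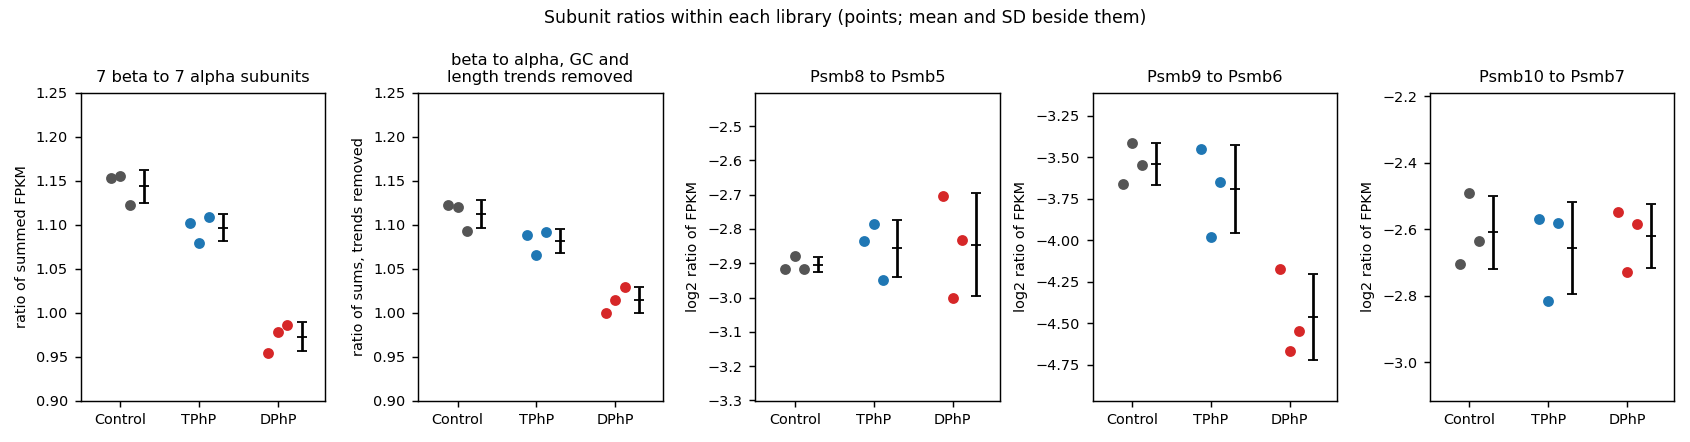
Ratios of subunit levels within each of the 9 libraries (points), with the group mean and SD beside them: beta to alpha ring sums on a linear axis, without and with GC and length trends removed, and 3 immunoproteasome subunits to the constitutive subunits they replace on a log2 axis. The beta to alpha ratio and the Psmb9 to Psmb6 ratio are lowest in the DPhP libraries, while the Psmb8 to Psmb5 and Psmb10 to Psmb7 ratios, drawn as deposited, overlap between all groups.

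The immunoproteasome subunits were all called lower in DPhP cells. Psmb9, which replaces Psmb6, had 7.09, 7.99 and 7.09 FPKM in control, 7.36, 5.44 and 6.63 in TPhP and 4.10, 2.96 and 3.31 in DPhP libraries. Every DPhP value was under every other value, and its fall of 0.92 (SE 0.104, limma adjusted p 8.93e-06) was the largest of all 48 members. Psmb8, which replaces Psmb5, had 14.1, 14.9 and 14.3 FPKM in control, 14.7, 15.3 and 13.2 in TPhP and 12.3, 10.1 and 11.1 in DPhP libraries. It too was lowest in all DPhP libraries and fell by 0.35 (SE 0.067, limma adjusted p 0.000667). Psmb10 (chr8:105935728-105938392), which replaces Psmb7, had 18.4, 21.4 and 18.1 FPKM in control, 19.5, 16.9 and 18.8 in TPhP and 17.4, 15.6 and 16.6 in DPhP libraries. The DPhP values overlapped those of TPhP but not of control. Its fall of 0.21 (SE 0.068, limma adjusted p 0.0168) was not called without control replicate 2, without DPhP replicate 2, with a common sum, or after removal of the GC and length trends, where the difference was 0.07.

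Set against the subunit it replaces in the same library, Psmb9 stood apart in DPhP cells in the values as deposited, as a description with no test. Its level was 8.62% ± 0.748 of Psmb6 in control, 7.81% ± 1.4 in TPhP and 4.58% ± 0.848 in DPhP libraries (SD, n = 3 each). On the log2 scale the libraries had -3.66, -3.41 and -3.55 in control, -3.45, -3.98 and -3.65 in TPhP and -4.17, -4.67 and -4.55 in DPhP, so that the DPhP group lay below all others. Psmb8 was 13.4% ± 0.209 of Psmb5 in control, 13.8% ± 0.782 in TPhP and 14.0% ± 1.44 in DPhP libraries. Psmb10 was 16.4% ± 1.26 of Psmb7 in control, 15.9% ± 1.48 in TPhP and 16.3% ± 1.06 in DPhP libraries. Both of these ratios overlapped between the 3 groups. With the GC and length trends removed, Psmb9 was 8.82% ± 0.816 of Psmb6 in control, 8.07% ± 1.43 in TPhP and 4.38% ± 0.862 in DPhP libraries, again lowest in DPhP. Psmb10 was then 14.7% ± 1.03 of Psmb7 in control, 15.1% ± 1.29 in TPhP and 19.2% ± 1.501 in DPhP libraries, with every DPhP library above all others. Psmb8 was 14.1% ± 0.261 of Psmb5 in control, 14.4% ± 0.877 in TPhP and 12.7% ± 1.34 in DPhP libraries, which overlapped. The order of the groups for Psmb10 to Psmb7 thus depended on the treatment of GC content and length. It also rests on the longest transcript taken for Psmb7, of 2849 bases and 40.8% GC. Whether that transcript is the one expressed was not tested.

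In the base, which recognises and unfolds substrates, 2 of 9 subunits were called higher and 3 lower in DPhP cells. Psmd4 (chr3:95032688-95042614), a receptor for ubiquitin chains, had 121, 124 and 120 FPKM in control, 118, 116 and 120 in TPhP and 95.2, 93.6 and 95.9 in DPhP libraries. The DPhP values were far below the rest, and the log2 fall was 0.35 (SE 0.026, limma adjusted p 1.95e-07). Psmc3 had 96.4, 95.2 and 94.4 FPKM in DPhP libraries, and its fall from control was 0.27 (SE 0.030, limma adjusted p 7.12e-06). The ATPase Psmc4 had 61.2, 60.5 and 62.0 FPKM in control, 59.9, 55.8 and 59.3 in TPhP and 54.3, 53.1 and 54.8 in DPhP libraries. It fell by 0.18 (SE 0.031, limma adjusted p 0.000331), with no overlap. Psmc3 and Psmc4 were no longer called once the GC and length trends were removed (-0.08 and -0.04).

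The scaffold subunit Psmd1 (chr1:86064619-86139295) rose. It had 62.9, 63.3 and 64.1 FPKM in control, 63.4, 65.3 and 65.0 in TPhP and 70.5, 71.1 and 68.9 in DPhP libraries. All DPhP values were the highest, a rise of 0.14 (SE 0.025, limma adjusted p 0.000325). The ATPase Psmc6 was called higher at 0.08, but the call was lost in 7 of the 9 fits that left out a library. Psmc1, Psmc2, Psmc5 and the scaffold Psmd2 had differences between -0.05 and 0.02 and were not called.

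Lid subunits moved in both directions. Of its 8 subunits 4 were called higher and 2 lower in DPhP cells. Psmd8 (chr7:29174187-29180673) had 149, 156 and 143 FPKM in control, 152, 150 and 145 in TPhP and 112, 107 and 112 in DPhP libraries. Its DPhP values were far below all others, and it fell by 0.43 (SE 0.035, limma adjusted p 4.79e-07). Psmd3 (chr11:98682554-98695978) had 57.5, 55.9 and 54.7 FPKM in control, 51.5, 56.0 and 54.2 in TPhP and 47.8, 46.3 and 45.8 in DPhP libraries, a fall of 0.26 (SE 0.035, limma adjusted p 3.87e-05). Psmd13 (chr7:140882394-140898642) had 51.5, 54.4 and 52.8 FPKM in control, 51.1, 52.7 and 55.5 in TPhP and 61.3, 60.1 and 61.5 in DPhP libraries. It was highest in every DPhP library, with a rise of 0.20 (SE 0.034, limma adjusted p 0.000241).

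Psmd6, Psmd12 and Psmd14 were also called higher, by 0.13, 0.11 and 0.09, and Psmd7 (0.06) and Psmd11 (0.01) were not called. The rise of Psmd14, the subunit that cuts ubiquitin chains from substrates, was not called without control replicate 1 or without DPhP replicate 2. The ratio of Psmd8 to Psmd13 within a library, chosen after its values were seen, was 2.82 ± 0.098 in control, 2.81 ± 0.184 in TPhP and 1.81 ± 0.030 in DPhP (SD, n = 3 each). With the GC and length trends removed it was 2.84 ± 0.1, 2.81 ± 0.182 and 1.79 ± 0.029 in the same order. Subunits of the same lid thus stood in another ratio at the RNA level in DPhP cells. Psmd8 and Psmd13 are alike in GC content (52.6% and 53.4%) and in length (1983 and 1989 bases). Removal of those trends therefore nearly cancels in this ratio and is no check of it.

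**Figure D4:**
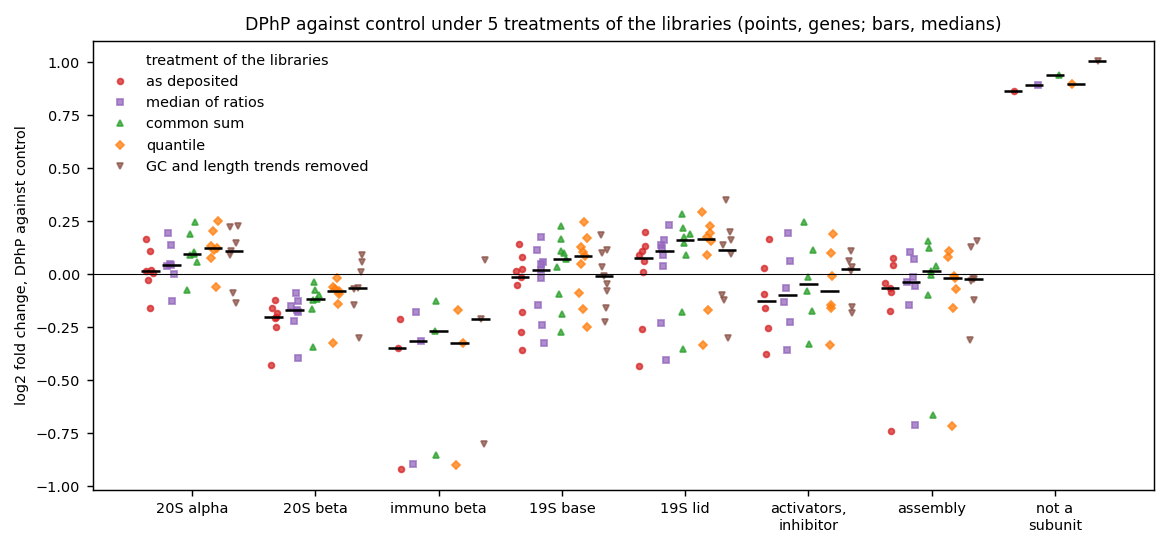
Log2 fold change in DPhP against control for the 48 tested genes, by role, under 5 treatments of the libraries (points, genes; bars, medians). Scaling shifts the genes of all roles the same way, and removal of GC and length trends also narrows the gap between the alpha ring (median 0.11) and the beta ring (median -0.06). The falls of Psmb9 and Psmd8 and the rise of Psmc3ip keep their side of 0 in each.

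Activators open the gate of the core in place of the 19S cap. The interferon-inducible activator is built of Psme1 and Psme2, whose genes lie 5912 bases apart on chromosome 14. Psme2 had 84.0, 81.4 and 69.9 FPKM in control, 74.1, 73.8 and 73.8 in TPhP and 66.8, 63.9 and 65.4 in DPhP libraries. The DPhP values were below all others, although control replicate 3 was nearer to them than the other controls. Its fall of 0.26 (SE 0.054, limma adjusted p 0.00123) was not called after removal of the GC and length trends (0.01). Psme2 shares sequence with the copy Psme2b, with 77.1% and 39.8% of their 75-base stretches found in no other gene, and Psme2b ranged from 0.67 to 3.4 FPKM without a call. Psme1 was not called (-0.09).

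Psme4, the nuclear activator known for acetylated histones in spermatogenesis, had 26, 25.6 and 25.7 FPKM in control, 27.9, 26.7 and 26 in TPhP and 28.7, 29.4 and 29.1 in DPhP libraries. It was highest in all DPhP libraries and rose by 0.17 (SE 0.032, limma adjusted p 0.000625), but the call was lost after removal of the GC and length trends (0.03). The nuclear activator Psme3 had 39.9, 40.0 and 38.0 FPKM in control, 37.4, 37.3 and 38.7 in TPhP and 40.5, 39.8 and 40.3 in DPhP libraries, and was not called against control. Psmf1, an inhibitor of the core in vitro, had 10.9, 11.4 and 11.1 FPKM in control, 10.7, 11.1 and 10.1 in TPhP and 9.84, 10.0 and 9.73 in DPhP libraries. It was lowest in the DPhP group, a fall of 0.16 (SE 0.042, limma adjusted p 0.00549). Of the 2 calls lower among activators and inhibitor, Psme2 and Psmf1, only 1 held under all 3 other scalings. Neither held in all 20 alternatives.

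Among the 7 assembly factors only Psmg4 was called in DPhP against control. Psmg4 (chr13:34162964-34178172), a chaperone of alpha ring assembly, had 11.1, 8.12 and 9.29 FPKM in control, 10.7, 9.63 and 7.68 in TPhP and 4.94, 6.28 and 4.64 in DPhP libraries. All DPhP values were the lowest, and it fell by 0.74 (SE 0.128, limma adjusted p 0.000293). With the GC and length trends removed the fall was 0.31 (limma adjusted p 0.0439). Its partner Psmg3 was not called (-0.08), nor were Psmg1 (-0.07) and Psmg2 (0.04). Of the chaperones of the base, Psmd9 had 9.90, 10.8 and 9.55 FPKM in control, 9.34, 11.8 and 10.4 in TPhP and 9.32, 8.46 and 8.70 in DPhP libraries. It lay just above the threshold (-0.18, limma adjusted p 0.0501). Psmd5 (0.08) and Psmd10 (-0.04) were not called.

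Psmc3ip (chr11:101092141-101095435), the recombination factor among the members, had 3.85, 3.38 and 4.12 FPKM in control, 3.51, 3.45 and 3.62 in TPhP and 7.28, 7.79 and 8.05 in DPhP libraries. It was higher in each DPhP library than in any other library and had the largest rise among the 48 tested members, 0.87 (SE 0.062, limma adjusted p 1.64e-07). Of its 75-base stretches 84.0% are found in no other gene, the rest being shared with Mlx. The summed level of the 10 germ cell markers spanned 23.7 to 38.5 FPKM (control), 21.4 to 29.8 (TPhP) and 4.01 to 4.17 FPKM (DPhP), and 4 of these markers, Dmc1 among them, were under 1 FPKM in control. Of the 6 tested germ cell markers 5 were called lower in DPhP against control, beside 37.9% of all tested genes. Prm1, Prm2, Tnp1 and Zbtb16 made up most of the lower sum. Prm1, Prm2, Tnp1 and Ddx4 reached 1 FPKM in no DPhP library, so they passed the filter through the other groups alone. Sycp3 did not fall, with 1.04, 0.98 and 1.01 FPKM in control and 1.0, 1.18 and 1.12 in DPhP libraries. The rise of Psmc3ip thus stood beside a lower sum of germ cell markers, though not beside a fall of each of them.

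The third comparison set the parent compound beside its metabolite. As doses and times are not given, a difference between the groups cannot be told apart from a difference in dose. In TPhP against DPhP 29 members were called, 19 higher and 10 lower in TPhP, where 68.7% of all tested genes were called, 37.8% higher and 30.9% lower. With a common sum or quantile normalization 11 members were called higher and 19 lower, with median-of-ratios size factors 15 and 15, and with the GC and length trends removed 13 and 18. Over all tested genes these settings gave, in the same order, 30.7% higher and 38.6% lower, 33.1% and 35.4%, 34.4% and 34.6%, and 33.0% and 33.9%. This comparison shares its DPhP libraries with the previous comparison and its TPhP libraries with the first. All 7 constitutive beta subunits were higher in TPhP, by 0.10 for Psmb4 to 0.38 for Psmb5 (SE 0.025, limma adjusted p 9.24e-08), but only 2 of the 7 kept the call in all 20 alternatives. A common sum left 3 called higher, quantile normalization 2 and median-of-ratios size factors 5, and removal of the GC and length trends gave 3 higher and 3 lower (Psmb2, Psmb4 and Psmb6). Psmd8 was higher by 0.43 (SE 0.035, limma adjusted p 5.47e-07), Psmb9 by 0.75 (SE 0.104, limma adjusted p 5.41e-05) and Psmg4 by 0.72 (SE 0.128, limma adjusted p 0.000382). Psmd13 was lower by -0.20 and Psmc3ip by -0.94 in TPhP (limma adjusted p 0.0003 and 7.95e-08).

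Some members differed between the compounds without being called in DPhP against control. Psme3 was lower in TPhP (-0.09, limma adjusted p 0.0217), Psmd5 was lower (-0.10, 0.0311), and Psmd9 and Psmg2 were higher (0.23, 0.0167 and 0.12, 0.0328). Each of these 4 calls was lost in at least 2 of the fits that left out a library. Psmb10 was not called (0.15, 95% interval 0.00 to 0.30), so that a difference of up to 0.30 is allowed. Psmd2, Psma4 and Psmd10 had differences between the compounds of 0.01 in size and were not called.

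Genes that work with the proteasome but carry no Psm symbol were taken from lists. Of 13 tested partners of the particle, 4 were called higher and 4 lower in DPhP against control. Over all tested genes 33.1% were called higher and 37.9% lower in that comparison. With a common sum or quantile normalization 5 partners were called higher and 3 lower, and with median-of-ratios size factors 5 and 4. Removal of the GC and length trends gave 2 and 6. The ubiquitin receptor Adrm1 fell from 59.7 ± 2.91 to 42.5 ± 1.59 FPKM (-0.48, limma adjusted p 4.99e-07), and the small lid subunit Sem1 from 132 ± 2.65 to 90 ± 2.38 FPKM (-0.54, limma adjusted p 6.47e-07). Usp14, a deubiquitinase on the base, rose from 37.3 ± 1.79 to 48.4 ± 1.62 FPKM (0.37, limma adjusted p 8.56e-06). After removal of the GC and length trends the rise of Usp14 was 0.22. The ubiquitin ligase Ube3a rose from 18.1 ± 0.373 to 22.0 ± 0.465 FPKM (0.27), a call lost after that removal (0.07).

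Of 9 tested regulators of proteasome genes 1 was called higher and 7 lower in DPhP cells. The shares of all tested genes were 33.1% and 37.9%. Under every other scaling 2 regulators were called higher and 6 lower. After the GC and length trends were taken out, 2 were higher and 5 lower. Nfe2l1, the transcription factor that raises proteasome genes when the proteasome is inhibited, fell from 60.9 ± 1.91 to 51.8 ± 1.21 FPKM (-0.23, limma adjusted p 3.18e-05), or as little as -0.14 over the alternatives. Ddi2, the protease that activates it, fell from 19.2 ± 0.666 to 15.6 ± 0.885 FPKM (-0.29, limma adjusted p 0.000181). Ngly1, which removes its sugars, fell from 18.9 ± 0.403 to 16.6 ± 0.344 FPKM (-0.18), and its binding partner Mafg from 21.4 ± 0.450 to 17.3 ± 0.380 FPKM (-0.29). The related factor Nfe2l3 had 0.447 ± 0.110 FPKM in control and 1.27 ± 0.121 in DPhP libraries (0.65), at a level near the filter. It reached 1 FPKM only in DPhP libraries and passed the filter through them, so its call as higher was not independent of the filter. Its change ranged up to 1.35 over the 19 alternatives that tested it. None of the 9 was called in TPhP against control, where 2 had an unadjusted p under 0.05.

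Of the 4 reported genes of ubiquitin and its activating enzymes, 1 was called higher and 3 lower in DPhP cells. Over all tested genes the shares were 33.1% and 37.9%. The call of the ubiquitin fusion gene Rps27a (-0.08, limma adjusted p 0.0275) held in 10 of the 20 alternatives, and each of the other scalings left 2 called lower. The polyubiquitin gene Ubb fell from 693 ± 39.6 to 523 ± 5.67 FPKM (-0.40, limma adjusted p 3.2e-06), or -0.20 with the GC and length trends removed. The alternative activating enzyme Uba6 rose from 9.74 ± 0.178 to 15.3 ± 0.860 FPKM (0.60, limma adjusted p 2.31e-07). Among 16 shuttle and extraction factors 5 were higher and 7 lower, beside the same shares of all tested genes. Sqstm1, a receptor that carries ubiquitinated proteins to autophagy, was 403 ± 10.1 FPKM in control, 432 ± 6.40 in TPhP and 271 ± 4.57 in DPhP libraries. It was thus above control in TPhP (0.10, limma adjusted p 0.0466) and below it in DPhP (-0.57, limma adjusted p 3.69e-09). The TPhP call held in 9 of the 20 alternatives only, being lost without any of 7 libraries when left out in turn. The cofactor Ubxn1 fell in DPhP from 82.9 ± 1.79 to 52.7 ± 3.49 FPKM (-0.65, limma adjusted p 1.21e-07).

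**Figure D5:**
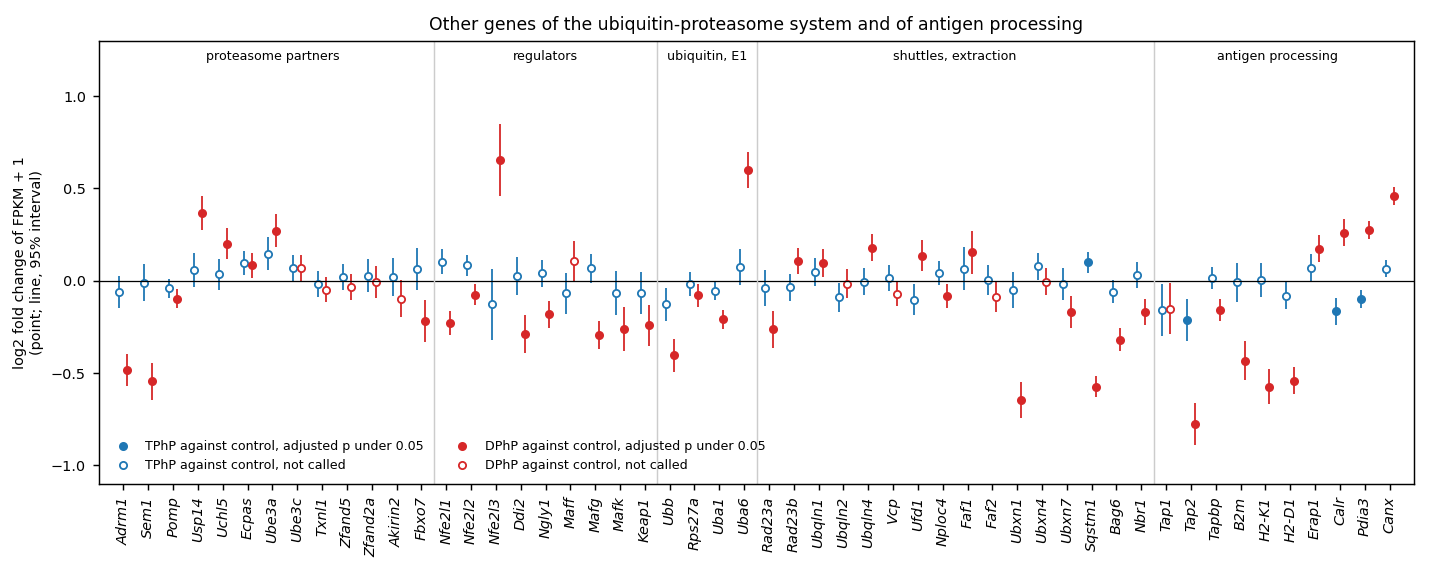
Log2 fold change of FPKM + 1 against control, with 95% intervals from limma, for genes that work with the proteasome without a Psm symbol and for genes of antigen processing. Filled points passed an adjusted p of 0.05. In DPhP regulators and ubiquitin genes are mostly below 0 and antigen processing is split, while in TPhP 4 points are filled, those of Sqstm1, Tap2, Calr and Pdia3.

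Genes that process and load the peptides cut by the immunoproteasome were split in DPhP cells, with 4 of 10 tested called higher and 5 lower. All tested genes were split as well, with 33.1% called higher and 37.9% lower. Tap2, a chain of the peptide transporter and a neighbour of Psmb8 in the genome, was 39.4 ± 2.39 FPKM in control, 33.9 ± 1.20 in TPhP and 22.6 ± 1.36 in DPhP libraries. It was lower than control in both, by -0.21 in TPhP (limma adjusted p 0.0339, called in 12 of 20 alternatives) and by -0.78 in DPhP (limma adjusted p 8.21e-08). Tap1, which shares the gap printed above with Psmb9, was not called in DPhP (-0.15, limma adjusted p 0.0507). The class I genes H2-K1 and H2-D1 fell in DPhP from 119 ± 8.66 to 79.9 ± 1.57 FPKM (-0.57) and from 192 ± 5.52 to 132 ± 4.69 FPKM (-0.54), or by -0.40 and -0.35 with the GC and length trends removed. The folding factors rose, with Canx from 132 ± 1.36 to 182 ± 1.66 FPKM (0.46, limma adjusted p 4.91e-09). In TPhP, Calr (-0.17, limma adjusted p 0.0126) and Pdia3 (-0.10, limma adjusted p 0.0214) were lower than control, called in 17 and 14 of 20 alternatives, whereas in DPhP both were higher (0.26 and 0.27).

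Of 18 tested interferon response genes that are not members, 3 were called higher and 7 lower in DPhP against control, with a median of -0.14. Over all tested genes 33.1% were called higher and 37.9% lower, with a median of -0.02. Bst2, a membrane restriction factor, fell from 54.0 ± 5.26 to 33.6 ± 1.58 FPKM (-0.66), and Irf8, a transcription factor of myeloid cells, from 10.3 ± 0.221 to 6.38 ± 0.899 FPKM (-0.62), while Ifitm3 rose from 154 ± 11.9 to 226 ± 8.10 FPKM (0.55). With the GC and length trends removed these changes were -0.31 for Bst2, -0.57 for Irf8 and 0.87 for Ifitm3. None of the 18 was called in TPhP, where 1 had an unadjusted p under 0.05. The macrophage markers given above went both ways in DPhP libraries, and their part in these changes was not tested. Of 9 other cytosolic peptidases and calpains 4 were called higher and 2 lower in DPhP, beside the same shares of all tested genes. Among them were the calpain subunits Capn2 (0.44) and Capns1 (-0.41). With the GC and length trends removed Capns1 fell by 0.15.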

How the data were processed

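RNA from 9 libraries was extracted with Trizol and enriched for mRNA on oligo(dT) beads, per the labels' protocols. The authors deposited 1 table of FPKM values for 19058 genes, mapped to GRCm38.p6 per the submitters' processing notes. Aligner, counter, strandedness and read depth are not stated in the labels, so intervals for counting error could not be given. The analysis used log2(FPKM + 1), which shrinks fold changes of low genes. The 12369 genes with 1 FPKM or more in 3 or more libraries entered limma 3.58.1 under R 4.3.3, with all 9 libraries, a mean per group, an intensity trend and Benjamini-Hochberg adjustment over all genes. Comparisons were two-sided and called at an adjusted p of 0.05. Members, gene lists and tests were chosen with earlier results of these data known. The genes named were the catalytic and immunoproteasome subunits, up to 3 called members per role and comparison with the largest change, and up to 4 called genes per list with the smallest p. Others named near a threshold were chosen after their values were seen. Of 20 alternatives, removal of GC and length trends (lowess, span 0.5, longest GENCODE M21 transcript, 98.5% of tested genes) was added after seeing the data. Shared sequence was judged over 75-base stretches of GENCODE M21 transcripts. Results of a few genes are left out here. The script was tested on simulated data. Tables and figures were made with matplotlib 3.10.9, pandas 2.3.3, numpy 2.4.6 and Python 3.11.15.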

Additional observations from a re-analysis of the deposited data

How the results depend on the processing

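In TPhP against control, where no member was called, 1 was called higher with a mean of at least 5 FPKM, a common sum or the replicate block, and 1 lower with a mean of at least 5 FPKM or median-of-ratios size factors. Leaving out libraries gave 0 to 1 higher and 0 to 2 lower. In DPhP against control 20 were called higher with a common sum or quantile normalization and 18 after removal of GC and length trends. The median there was 0.024 with a common sum, -0.0090 with quantile normalization, 0.012 after removal of the trends, -0.027 with median-of-ratios size factors and -0.072 to -0.027 without a library. In TPhP against DPhP 11 higher and 19 lower were called with a common sum or quantile normalization, and 18 lower after removal of the trends. The median there was 0.064 without a filter, 0.014 with a common sum, 0.049 with median-of-ratios size factors, -0.016 with quantile normalization, -0.027 after removal of the trends and 0.059 to 0.097 without a library. Uncalled differences between TPhP and control changed sign for Psmb8 (0.0097 with a common sum, 0.014 after removal of the trends), Psmd8 (0.0091 with a common sum, 0.0080 with quantile normalization, 0.013 after removal of the trends) and Psmg4 (0.012 after removal of the trends). Without a library they spanned 0 for Psmb1 (-0.0024 to 0.056), Psmb7 (-0.050 to 0.0016), Psmb8 (-0.045 to 0.054), Psmb10 (-0.10 to 0.012), Psmd8 (-0.036 to 0.027), Psmd9 (-0.030 to 0.13), Psmd13 (-0.027 to 0.032) and Psmg4 (-0.12 to 0.099). After removal of the trends, DPhP against control reversed for Psma7 (0.11, called), Psmb6 (0.059), Psmb10 (0.069), Psme2 (0.014), Psmb2 (0.093, called), Psmb4 (0.011) and Psmc6 (-0.0067), and TPhP against DPhP for Psma7 (-0.028), Psmb6 (-0.090, called), Psmb10 (-0.091), Psmc4 (-0.0092), Psme2 (-0.073), Psmb2 (-0.12, called) and Psmb4 (-0.092, called). Quantile normalization also turned Psmb4 there (-0.012). The cause was not tested. Same-numbered libraries correlated at -0.12 to 0.10 and libraries of different number at -0.13 to 0.089. These values gave no sign of pairing by number but cannot settle whether the libraries were paired. With the replicate block 10 members were called higher and 21 lower in DPhP against control, and 20 and 11 in TPhP against DPhP. Of the 460 values of the 23 named members called in DPhP against control, 443 kept the call, 13 lost it and 4 reversed. No scaling moved the median of all genes by over 0.1. Small differences of Psme2b and of the low assembly factors are limited by the spread of 3 libraries a group.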
